A study of Mus musculus with 23 samples.

Results

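Both the nuclear and the cytoplasmic step of microRNA maturation were removed, in separate mouse lines, from adult Schwann cells (SCs), and the comparison here is where the 2 deletions changed gene expression unequally. Dgcr8 binds the primary transcript in the nucleus and lets Drosha cut out the hairpin, and Dicer then cuts the exported hairpin to the mature microRNA in the cytoplasm. Loss of either protein therefore stops most mature microRNAs, and the proteins also have separate roles: the Dgcr8 and Drosha complex cuts hairpins in some messenger RNAs, and Dicer cuts other double-stranded RNA. In peripheral nerve, myelinating SCs wrap axons, and after injury they leave that state, divide and become repair cells that induce Jun and Ngfr.

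All 12 libraries of the inducible knockouts (iKO), out of 23 in the series, entered 1 fit with 4 groups of 3 sciatic nerve (SN) libraries on a C57bl6 background. Dgcr8 iKO nerves were P0-CreERT2 -/+ with Dgcr8 flox/flox, and Dicer iKO nerves were P0-CreERT2 -/+ with Dicer1 flox/flox. Dgcr8 control and Dicer control nerves carried the same floxed alleles without Cre (P0-CreERT2 -/-), and all 4 groups had been given tamoxifen and were taken 3 months post tamoxifen (mpT). The Cre transgene targeted SCs, whereas the RNA came from whole nerve, in which fibroblasts, macrophages and vessels were not targeted. Mutant mice had been preselected for affected morphology, since penetrance was incomplete, and the sources give no pairing of mice across groups. Of 22880 genes listed, 13552 passed the filter on low counts and were tested. For each gene the value of interest was the log2 difference of effects: the log2 fold change of Dgcr8 iKO over its controls minus that of Dicer iKO over its controls. A strict rule (adjusted p of at most 0.05) and a lenient rule (unadjusted p of at most 0.01 and a log2 difference of at least 1 in size) were used. Since the lenient rule is unadjusted, the genes passing it are described as candidates.

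Libraries held 7887692 to 10143207 counts in the Dgcr8 line and 5594838 to 7753140 in the Dicer line, with the lowest total in Dicer iKO 2. Every Dicer library was thus shallower than every Dgcr8 library. The part of this depth in the numbers of genes called was not tested. Sox10, a transcription factor that defines SCs, was between 173 and 317 normalised CPM (the count scaled to a common library size, TMM-normalised) in every library. Among the control nerves, Dicer control 1 stood apart. Its summed CPM over 16 perineurial and fibroblast markers was 16845 and over 7 red blood cell markers 3757, against 5847 to 7658 and 46 to 361 in the Dgcr8 controls, and Dicer control 2 (12815 and 306) lay between it and Dicer control 3 (6940 and 79). RNA of the Y-linked gene Ddx3y was found in all 6 libraries of the Dgcr8 line, in 2 of 3 Dicer controls and in 1 of 3 Dicer iKO libraries, so sex was unbalanced in the Dicer line alone. The gap between lines and any difference of breeding or processing cannot be told apart.

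Neither targeted gene passed a rule for the difference of effects. Dgcr8 (chromosome 16) was at 38.5 ± 3.20 CPM (SD, n = 3) in Dgcr8 controls and 45.1 ± 7.84 in Dgcr8 iKO nerves, against 40.4 ± 2.45 and 45.3 ± 2.53 in the Dicer line. Dicer1 (chromosome 12) was at 88.7 ± 1.66 CPM in Dicer controls and 81.9 ± 0.415 in Dicer iKO nerves, and at 90.5 ± 6.92 and 98.7 ± 4.68 in the Dgcr8 line. Gene totals include reads outside the floxed exons, so these values do not measure the deletion. Drosha, the nuclease that Dgcr8 partners, was at 48.9, 49.3 and 55.1 CPM in Dgcr8 controls and 32.1, 22.2 and 32.0 in Dgcr8 iKO nerves, a log2 change of -0.83 ± 0.15 (SE; adjusted p = 0.000803, edgeR's quasi-likelihood test). In Dicer iKO nerves the change of Drosha was -0.40 ± 0.15 (adjusted p = 0.074 in the same quasi-likelihood test), and the difference of effects was -0.44 ± 0.22 (adjusted p = 0.4). None of the 17 tested genes of microRNA biogenesis and Argonaute passed the strict or lenient rule for the difference, and their median log2 difference was -0.09 (-0.15 to -0.0084 without single libraries), beside -0.0047 over all genes tested.

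The 2 deletions moved largely the same genes, more strongly in the Dgcr8 line, by an amount that depended on single libraries. In Dgcr8 iKO nerves 1782 genes were up and 929 down (13.1% and 6.86% of those tested, at a fold change of at least 2 and an adjusted p of at most 0.05), and in Dicer iKO nerves 1115 were up and 281 down (8.23% and 2.07%). Called in both were 1213 genes, which was 44.7% of the genes called in the Dgcr8 line and 86.9% of those called in the Dicer line, and 0 of them moved in opposite directions. Of the 1213 genes, 1003 had the larger fold change in Dgcr8 iKO nerves. Dgcr8 effects were set against Dicer effects with a line through the origin fitted by total least squares, not by regression. Its slope was 1.29 over these genes and 1.43 over all genes tested. A wider spread of the Dgcr8 estimates also raises such a slope. The slope fell to 1.15 over the genes called in both when Dicer control 1 was left out, and to 1.08 without both Dicer control 1 and Dicer iKO 1. Genes down in Dicer iKO nerves numbered 465 without Dicer iKO 1, 170 without Dicer iKO 2 and 161 without Dicer iKO 3. Dicer iKO 1 was the mildest of its group in summed cholesterol synthesis genes (1919 CPM, against 1178 and 1054 CPM). The Dgcr8 iKO libraries were at 1056, 1532 and 867 CPM. A bulk nerve cannot tell fewer cells of a type from less RNA per cell, which holds for each value given.

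**Figure D1:**
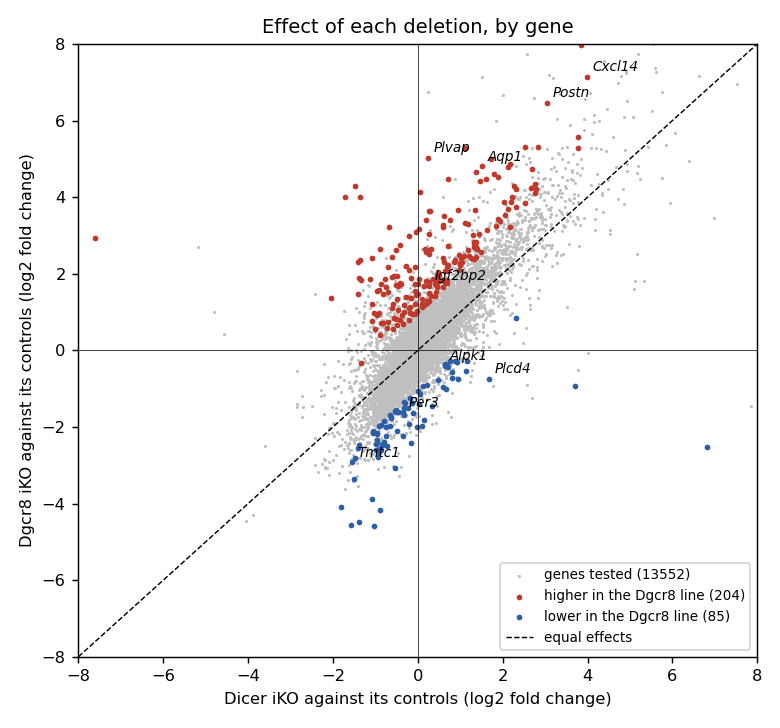
Each point is a gene, with the log2 fold change of Dicer iKO over its controls on the x axis and that of Dgcr8 iKO over its controls on the y axis. Coloured genes passed the lenient rule for the difference (204 higher and 85 lower in the Dgcr8 line), the dashed line marks equal effects, and 13 genes lie outside the axes, which end at 8.

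A difference of effects passed the strict rule for 1 gene in each direction (0.00738% of genes tested each). Plvap was higher in the Dgcr8 line and Per3 was lower. By edgeR 1861 genes (13.7%) had an unadjusted p under 0.05, of which 1038 were higher, and 21 genes had an adjusted p of at most 0.1. Other tools made more strict calls on the same counts: DESeq2 called 170 higher and 65 lower, and limma voom with sample quality weights called 406 and 289. The lenient rule was passed by 204 genes higher in the Dgcr8 line (1.51%) and 85 lower (0.627%).

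Plvap, on chromosome 8, encodes the protein of the diaphragms in fenestrated capillaries. It was at 0.24, 0.27 and 0.41 CPM in Dgcr8 controls and at 9.44, 13.8 and 8.87 CPM in Dgcr8 iKO nerves, and at 1.44, 1.19 and 0.68 CPM in Dicer controls and 1.87, 1.21 and 0.83 CPM in Dicer iKO nerves. The 3 Dgcr8 iKO libraries were thus above all 9 others, and the Dicer groups overlapped. The log2 difference was 4.78 ± 0.62 (adjusted p = 0.0462, quasi-likelihood test). The Dgcr8 controls held 8 Plvap counts in all, so the ratio of iKO to control of 34.8 has a 95% counting interval of 17.4 to 81.4, against 1.2 (0.667 to 2.18) in the Dicer line. These intervals cover counting error only. Of 16 endothelial and pericyte markers, 0 passed the lenient rule upwards and 1 downwards (Ly6c1), beside 1.51% and 0.627% of all genes tested. Their summed level was 996 to 1156 CPM in Dgcr8 iKO and 1102 to 1271 CPM in Dgcr8 control nerves. In the Dicer line it was 879 to 971 CPM in iKO and 1046 to 1072.5 CPM in control nerves.

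Per3, a period gene of the circadian clock on chromosome 4, was at 90.7, 114 and 84.7 CPM in Dgcr8 controls and fell to 28.6, 34.2 and 31.5 CPM in Dgcr8 iKO nerves. In the Dicer line it was at 118, 125 and 142 CPM in controls and 104, 102 and 96.4 CPM in iKO nerves. The Dgcr8 iKO libraries were below all others, with a log2 difference of -1.27 ± 0.18 (adjusted p = 0.0495, quasi-likelihood test). Both calls sat close to the threshold: leaving out single libraries gave adjusted p between 0.00377 and 0.17 for Plvap and between 0.00414 and 0.175 for Per3, while the log2 differences stayed between 4.54 and 5.16 and between -1.36 and -1.14.

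Genes higher in the Dgcr8 line, by smallest p at a mean log2 CPM of at least 0, were led by Plvap, Aqp1, Fosl2, Sfrp1, Mcam, Cxcl14, Hmga1, Ccdc9b, Sox4, Bzw2, Synpo and Syt4. Aqp1, a water channel, was at 2.60, 0.95 and 2.07 CPM in Dgcr8 controls and 60.3, 52.2 and 50.1 CPM in Dgcr8 iKO nerves, and at 4.46, 3.04 and 3.38 CPM in Dicer controls and 5.6, 14.5 and 11.4 CPM in Dicer iKO nerves. It rose in both lines, by 4.81 ± 0.34 and 1.52 ± 0.33 on the log2 scale (adjusted p = 1.3e-06 and 0.0061), and the difference of 3.30 ± 0.49 had an adjusted p of 0.058 in the quasi-likelihood test. Mcam, an adhesion molecule of immature SCs and of vessel walls, rose by 2.57 ± 0.14 in Dgcr8 iKO and by 1.48 ± 0.14 in Dicer iKO nerves. Syt4, a synaptotagmin of vesicle traffic, was at 219, 225 and 368 CPM in Dgcr8 iKO nerves against 60.1, 83.6 and 83.3 CPM in Dicer iKO nerves, while both control groups lay between 14.6 and 22.8 CPM.

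Cxcl14, a chemokine, rose by 7.15 ± 0.36 and by 3.98 ± 0.31 on the log2 scale, the first from 12 counts in all 3 Dgcr8 controls. Its iKO levels were 62.2 to 73.2 CPM in the Dgcr8 line and 23.7 to 35.2 CPM in the Dicer line, without overlap, and its controls 0.24 to 0.82 CPM and 2.16, 2.65 and 0.68 CPM, with a log2 gap of 1.26 between the iKO groups and -1.91 between controls. Fosl2, an AP-1 transcription factor, was at 133, 103 and 111 CPM in Dgcr8 iKO and 76.6, 94.6 and 91.3 CPM in Dicer iKO nerves, but its controls also differed, at 30.2 to 36.3 CPM in the Dgcr8 line and 50.3 to 57.4 CPM in the Dicer line. The same held for Sox4, a transcription factor of progenitors (4.63 to 6.62 against 7.98 to 18.3 CPM in controls), and for Sfrp1, a secreted Wnt antagonist (3.27 to 3.94 against 6.09 to 12.3 CPM). Of the 12 genes, the control gap was larger in size than the iKO gap for Fosl2, Sfrp1, Cxcl14, Hmga1, Ccdc9b, Sox4 and Synpo, and smaller for Plvap, Aqp1, Mcam, Bzw2 and Syt4.

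Genes lower in the Dgcr8 line were led by Per3, Slamf9, Igsf9, Kcns3, Yjefn3, Alpk1, Tmtc1, Wdr72, Ly6c1, Fmo5, Spp1 and Plcd4. Tmtc1, an enzyme that puts mannose on cadherins, was at 162, 175 and 239 CPM in Dgcr8 controls and 25.3, 26.1 and 24.9 CPM in Dgcr8 iKO nerves. In the Dicer line it fell from 203, 224 and 261 CPM to 107, 66 and 61.4 CPM, so that it fell in both lines and further in the Dgcr8 line. The log2 difference was -1.36 ± 0.29 (adjusted p = 0.137, quasi-likelihood test). Kcns3, a silent subunit of voltage-gated potassium channels, fell by 2.39 and by 0.96 on the log2 scale.

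Alpk1, a kinase that senses bacterial sugars, was at 29.3, 29.4 and 25.3 CPM in Dgcr8 controls and 22.5, 20.0 and 21.1 CPM in Dgcr8 iKO nerves, against 40.0, 41.6 and 35.8 CPM in Dicer controls and 53.8, 52.0 and 76.5 CPM in Dicer iKO nerves. Its effects thus had opposite signs, -0.40 ± 0.15 and 0.64 ± 0.15 on the log2 scale, and neither reached a fold change of 2. Plcd4, a phospholipase C, was at 1.44, 1.06 and 3.11 CPM in Dicer controls and 6.53, 5.01 and 6.51 CPM in Dicer iKO nerves, a change of 1.68 ± 0.38 (adjusted p = 0.0074, quasi-likelihood test). In the Dgcr8 line it was at 4.84, 5.86 and 3.73 CPM in controls and 1.89, 2.96 and 3.74 CPM in iKO nerves, a change of -0.74 ± 0.36.

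**Figure D2:**
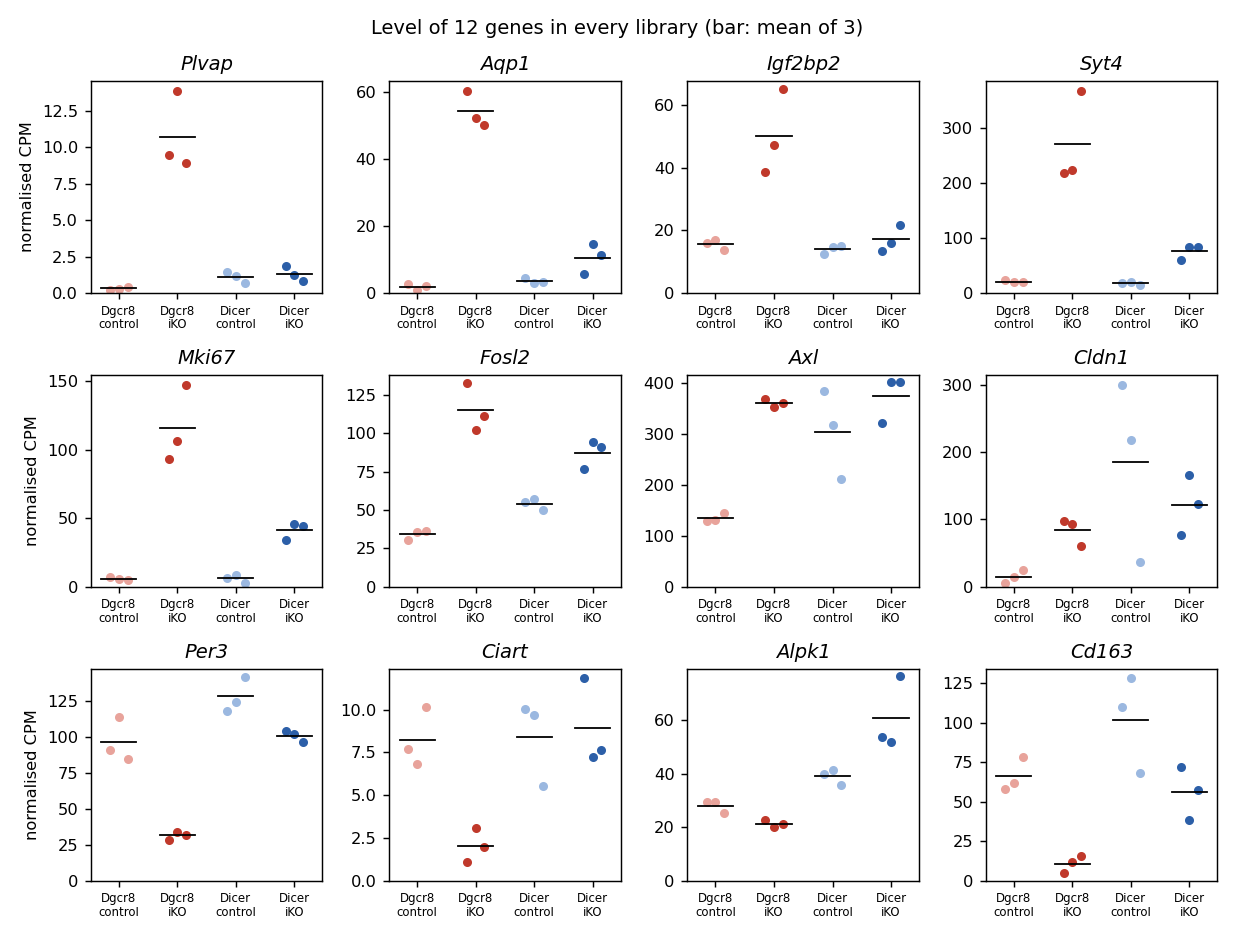
Normalised CPM of 12 genes in each of the 12 libraries, with 3 points and their mean as a bar for each group. Plvap, Aqp1, Igf2bp2, Syt4 and Mki67 were highest in Dgcr8 iKO nerves and Per3, Ciart and Cd163 lowest there, whereas Axl and Cldn1 separated the 2 control groups more than the 2 iKO groups.

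A difference of effects can lie between the iKO nerves, between the control nerves or in both, and the candidates were split by which gap was larger. This is a description, since the rule selected genes on the iKO gap minus the control gap. Among the 204 genes higher in the Dgcr8 line, the gap between the control groups was the larger for 138 and the gap between the iKO groups for 66, and 192 of the 204 were lower in Dgcr8 than in Dicer controls. Among the 85 genes lower in the Dgcr8 line, the iKO gap was the larger for 63 and the control gap for 22. Over all genes, 17 were higher (0.125%) and 206 lower (1.52%) in Dgcr8 than in Dicer controls, and 81 were higher (0.598%) and 55 lower (0.406%) in Dgcr8 than in Dicer iKO nerves, at a fold change of at least 2 and an adjusted p of at most 0.05. The count for controls rested on single libraries, at 14 genes in all without Dicer control 1, 18 without Dicer control 2 and 723 without Dicer control 3. It was 3 without Dgcr8 control 1 and 15 without Dgcr8 control 2.

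Axl, a receptor kinase that takes part in phagocytosis, showed the control gap. It was at 130, 131 and 144 CPM in Dgcr8 controls and rose to 368, 352 and 361 CPM in Dgcr8 iKO nerves, but was already at 384, 318 and 211 CPM in Dicer controls and at 323, 402 and 403 CPM in Dicer iKO nerves. The iKO groups overlapped and the control groups did not. Cldn1, the tight junction protein of the perineurium, was at 6.26, 15 and 24.6 CPM in Dgcr8 controls and 300, 218 and 36.9 CPM in Dicer controls. Within the Dicer controls its order was that of the summed perineurial and fibroblast markers, a list that includes Cldn1, and the part of these markers in the result was not tested. C2, an early complement component, was at 137, 86.4 and 26.9 CPM in Dicer controls and 29.7 to 68.9 CPM in Dicer iKO nerves, against 8.51 to 21 and 43.7 to 48.7 CPM in the Dgcr8 line.

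Slamf9 and Spp1 had the control gap with the other sign. Slamf9, a receptor of the SLAM family, was at 41.8, 40.7 and 32.7 CPM in Dgcr8 controls and 19.7 to 25.2 CPM in Dicer controls, against 14.5 to 15.2 and 17.8 to 21.2 CPM in the iKO groups. Spp1, the secreted phosphoprotein osteopontin, was at 1411 to 1675 CPM in Dgcr8 controls and 746 to 944 CPM in Dicer controls, whereas the iKO groups overlapped at 982 to 1326 and 1271 to 1431 CPM.

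**Figure D3:**
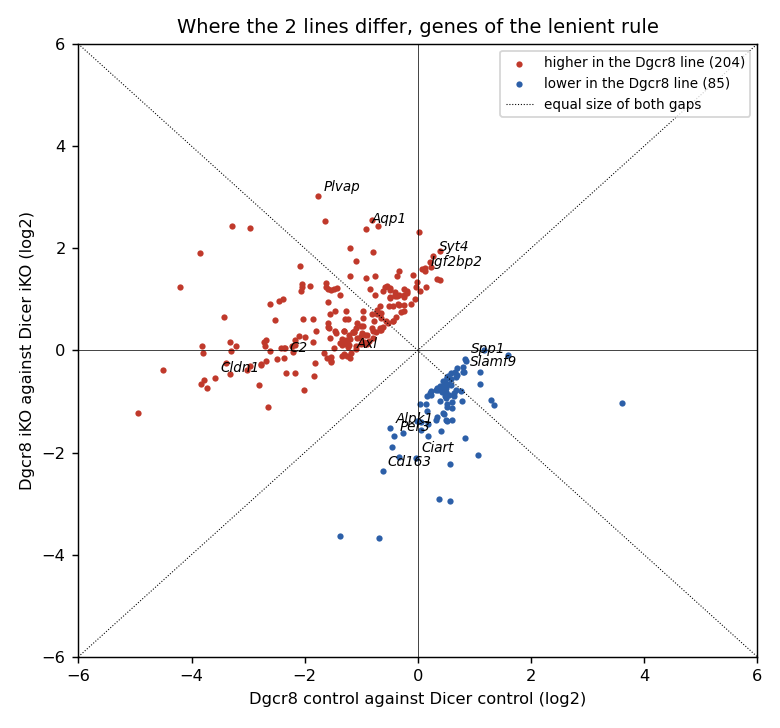
Genes of the lenient rule (204 higher, 85 lower in the Dgcr8 line), with the log2 gap between control groups (Dgcr8 over Dicer) on the x axis and that between iKO groups on the y axis. Dotted lines mark gaps of equal size: the gap between controls was the larger for 138 of the red and 22 of the blue genes, and 5 genes lie outside the axes, which end at 6.

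Gene lists followed the same division. Their counts stand beside 1.51% of all genes tested that passed the lenient rule upwards and 0.627% that passed downwards. For cell cycle and mitosis, 7 of 34 genes passed the lenient rule upwards and 0 downwards, 31 of 34 differences were positive, and the median log2 difference was 1.04. The median gap was 1.17 between the iKO groups and -0.04 between the controls. Mki67, which marks dividing cells, was at 93.4, 106 and 147 CPM in Dgcr8 iKO nerves and 34.1, 46.1 and 44.5 CPM in Dicer iKO nerves, with all controls between 2.84 and 8.87 CPM. Prc1, which bundles microtubules in cytokinesis, was at 31.9, 34.7 and 39.5 CPM against 13.7, 19.5 and 14.5 CPM in the iKO groups, and 1.62 to 3.44 CPM in controls. Ccne2, the cyclin of entry into S phase, rose in Dgcr8 iKO nerves (1.85 ± 0.33, adjusted p = 0.000594, quasi-likelihood test), with a change of 0.03 ± 0.34 in Dicer iKO nerves. Of 18 replication-dependent histones, 4 passed upwards (Hist1h1b, Hist1h3a, Hist1h3b and Hist1h2bg) with a list median of 1.14, and histones of near-identical sequence share reads. Without Dicer control 1 and Dicer iKO 1 the medians were 0.87 for cell cycle genes and 0.62 for histones. The histone median was also 0.74 without Dgcr8 iKO 3, 0.75 without Dicer control 1 and 0.72 without Dicer control 2.

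Repair genes, which SCs induce after injury, were up in both lines. Of 23 repair and immature Schwann cell genes tested, 18 were up in Dgcr8 iKO and 14 in Dicer iKO nerves, beside 13.1% and 8.23% of all genes tested. The lenient rule for the difference was passed by 4, all upwards (Ngfr, Ccl2, Timp1 and Plau), beside 1.51% of all genes tested. The median log2 difference was 0.50. Without single libraries the unadjusted p (quasi-likelihood test) rose above the lenient limit for 3 of these, to 0.0274 for Ngfr, 0.0183 for Plau and 0.0138 for Timp1. For Ccl2 it stayed at or below 0.00879. Ngfr, the p75 neurotrophin receptor, was at 296, 216 and 217 CPM in Dgcr8 iKO and 156, 176 and 169 CPM in Dicer iKO nerves, with controls at 41.7 to 47.5 and 34.4 to 85.5 CPM. Its log2 difference was 0.81 to 1.37 without single libraries. Jun, the transcription factor of the repair programme, rose by 1.54 ± 0.16 and 1.01 ± 0.16, with a difference of 0.53 ± 0.23 (adjusted p = 0.33). Gdnf, a neurotrophic factor, was at 6.14, 7.35 and 11.8 CPM in Dgcr8 iKO and 1.47, 3.45 and 2.36 CPM in Dicer iKO nerves. Dicer controls held 2 Gdnf counts in all and Dgcr8 controls 11, so the ratio of iKO to control was 25.6 (95% counting interval 6.72 to 218) in the Dicer line and 19.3 (10.6 to 39.3) in the Dgcr8 line.

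Among matrix proteases and inhibitors 6 of 19 genes passed upwards and 0 downwards, beside 1.51% and 0.627% of all genes tested, with a median of 0.53. Adamts4, an aggrecanase, was at 33.3, 24.6 and 39 CPM in Dgcr8 iKO and 9.06, 11.1 and 12.1 CPM in Dicer iKO nerves, with overlapping controls at 3.42 to 5.79 CPM. The log2 gap between controls was -1.30 for Adamts1, -0.78 for Mmp14 and -0.73 for Timp1, beside 0.38, 0.58 and 0.78 between iKO groups. Summed over the list, the iKO groups overlapped (2816 to 2924 CPM in the Dgcr8 line, 2817 to 2987 CPM in the Dicer line). Postn, a matrix protein of fibroblasts and SC precursors, was at 933, 784 and 631 CPM in Dgcr8 iKO and 211, 519 and 433 CPM in Dicer iKO nerves, while Dicer controls held 73.6, 53.6 and 12.6 CPM against 6.40 to 12.2 CPM in Dgcr8 controls.

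No myelin gene passed a rule for the difference. Of 21 tested, 0 passed in either direction, with a median log2 difference of -0.34 and a median gap of 0.0029 between the iKO groups and 0.38 between controls. Within the lines, 9 of the 21 were called down in Dgcr8 iKO and 0 in Dicer iKO nerves, beside 6.86% and 2.07% of all genes tested. The difference was negative for 17 and positive for 4. At an unadjusted p under 0.05, 4 (19%) were lower and 0 higher, beside 6.07% and 7.66% of all genes tested. The median difference was -0.11 without Dgcr8 iKO 3, -0.14 without Dicer control 1 and -0.55 without Dicer control 3. Mbp, which compacts myelin, had a difference of -0.44 ± 0.35. For Egr2 and Sox10, transcription factors that drive myelination, it was 0.05 ± 0.35 and 0.21 ± 0.24. The adjusted p of these 3 genes was 0.6 to 0.96 in the quasi-likelihood test.

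Cholesterol synthesis genes, which supply the myelin membrane, were 18 of 21 down in Dgcr8 iKO and 11 of 21 down in Dicer iKO nerves. Over all genes tested, 6.86% and 2.07% were down. All 21 differences were negative with a median of -0.66, and 1 gene, Sc5d, passed the lenient rule. Sc5d, a late desaturase of the pathway, was at 218, 204 and 220 CPM in Dgcr8 controls and 32.2, 49.6 and 27.4 CPM in Dgcr8 iKO nerves, against 120, 166 and 172 CPM and 79.7, 50.1 and 43.6 CPM in the Dicer line. The median gap over the list was 0.53 between controls and -0.20 between iKO groups, and the median difference was -0.28 without Dicer control 1 and Dicer iKO 1.

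Macrophage and complement lists differed mainly between the controls. Of 20 macrophage markers, Ctss passed upwards and Cd163 downwards, and the median of 0.72 was made of -0.85 between controls and -0.08 between iKO groups. The summed level was 550 to 664 CPM in Dgcr8 controls, 1760, 1098 and 556 CPM in Dicer controls, 3869 to 9493 CPM in Dgcr8 iKO and 5395 to 9782 CPM in Dicer iKO nerves. The iKO ranges overlapped. The median was 0.39 without Dgcr8 iKO 3, 0.16 without Dicer control 1, and -0.03 without Dicer control 1 and Dicer iKO 1. Cd163, a haemoglobin scavenger receptor of resident macrophages, departed from the list: it was at 58.0, 62.0 and 78.4 CPM in Dgcr8 controls and 5.08, 11.8 and 15.5 CPM in Dgcr8 iKO nerves, against 110, 128 and 68.0 CPM and 71.8, 38.5 and 57.1 CPM in the Dicer line. For complement 2 of 16 genes passed, both upwards (Cfb and C2), and for perineurial and fibroblast markers 2 of 16 passed upwards (Cldn1 and Pi16) and 1 downwards (Mfap5), with medians of 0.85 and 0.60 and control gaps of -0.92 and -0.99. The complement median was 0.54 without Dgcr8 iKO 3, 0.55 without Dicer control 1 and 0.28 without both Dicer control 1 and Dicer iKO 1. The perineurial and fibroblast median was 0.15 without Dicer control 1 and 0.92 without Dicer control 3. Mast cell markers had median gaps of -2.09 between controls and -1.63 between iKO groups, and 0 of 9 passed for the difference.

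**Figure D4:**
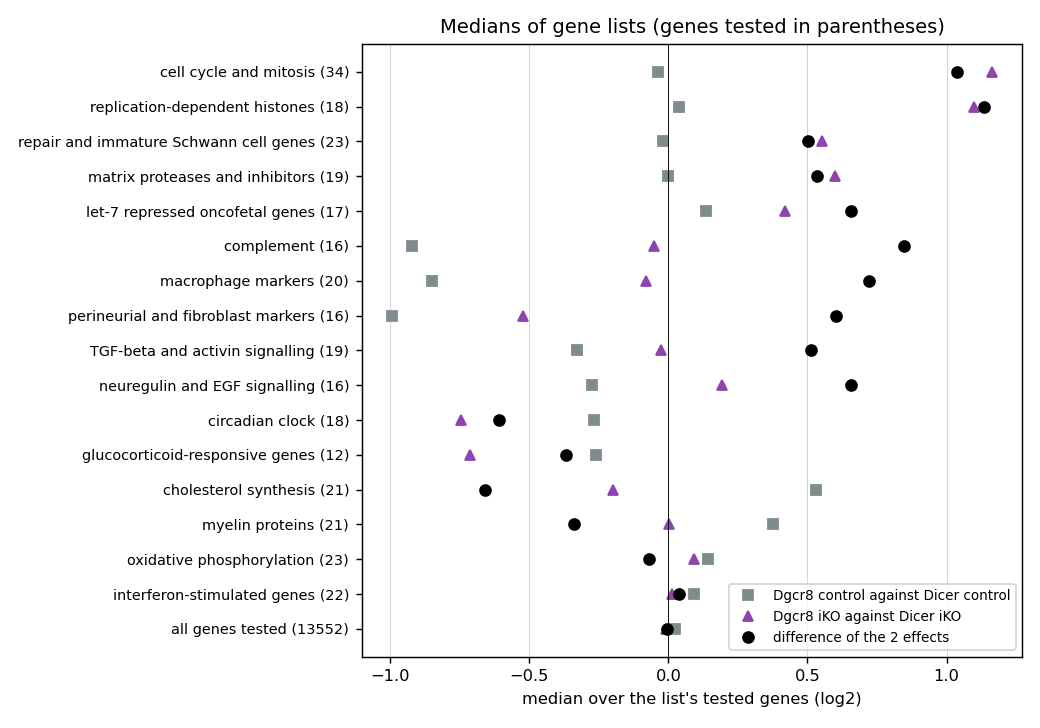
Median log2 gap between controls (squares), between iKO groups (triangles) and median difference of effects (circles) for 16 gene lists and all genes tested, with the number of genes tested in parentheses. Cell cycle, histone and repair lists had control medians near 0 and iKO medians above it, and complement and macrophage lists the reverse, with control medians of -0.92 and -0.85.

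Circadian clock genes were among those lower in the Dgcr8 line. The clock runs on Arntl and Clock, which switch on Per, Cry, Nr1d1 and Dbp genes through E-box elements, and Dbp and Tef act in turn on D-box elements. Of 18 clock genes tested, 4 passed the lenient rule downwards (Per3, Ciart, Nr1d1 and Dbp) and 0 upwards, beside 0.627% and 1.51% of all genes tested. The median log2 difference was -0.61. The 250 bases before the annotated start are printed for Per3 and Ciart, which had the smallest p of these 4, to show the elements there (RefSeq, GRCm38.p6, minus strand, with D-box TTATGTAA in capitals in Per3 and E-box CACGTG in capitals in Ciart).
Per3 (chr4:151044666-151044915): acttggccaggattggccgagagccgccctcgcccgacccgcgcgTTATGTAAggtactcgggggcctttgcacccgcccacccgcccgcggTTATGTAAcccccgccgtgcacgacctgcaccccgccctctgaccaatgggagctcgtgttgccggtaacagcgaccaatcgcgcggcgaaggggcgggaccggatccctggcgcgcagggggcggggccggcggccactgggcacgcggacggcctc
Ciart (chr3:95882229-95882478): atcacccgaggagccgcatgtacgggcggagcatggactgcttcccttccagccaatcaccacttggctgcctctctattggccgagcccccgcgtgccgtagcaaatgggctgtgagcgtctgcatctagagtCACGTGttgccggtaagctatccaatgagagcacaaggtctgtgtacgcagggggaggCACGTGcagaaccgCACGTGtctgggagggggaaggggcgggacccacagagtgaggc
Searched on both strands, TTATGTAA stood at 2 places in the Per3 window and in 0.819% of 32851 windows of the same length, and CACGTG at 3 places in the Ciart window and in 6.02% of all windows. Of 15 clock genes with a window, 5 held CACGTG and 1 held TTATGTAA, and the windows of Nr1d1 and Dbp held neither.

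Ciart, a repressor of Arntl and Clock, was at 7.68, 6.81 and 10.2 CPM in Dgcr8 controls and 1.06, 3.06 and 1.99 CPM in Dgcr8 iKO nerves, against 10.1, 9.66 and 5.55 CPM and 11.9, 7.25 and 7.62 CPM in the Dicer line. Nr1d1, the receptor REV-ERB alpha, was at 55.1, 86.6 and 56.2 CPM in Dgcr8 controls and 9.80, 23.9 and 21.7 CPM in Dgcr8 iKO nerves, with 23.1 to 62.2 CPM in Dicer controls and 38.5 to 60.9 CPM in Dicer iKO nerves. Dbp was at 63.6, 66.6 and 69.4 CPM in Dgcr8 controls and 14.2, 38.0 and 23.2 CPM in Dgcr8 iKO nerves, and between 61.8 and 107 CPM in the 6 Dicer line libraries. For all 3 genes the Dgcr8 iKO libraries were the lowest of the Dgcr8 line and the Dicer groups overlapped.

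Other clock genes were also read between the lines within controls and within iKO nerves (Arntl, Tef and Npas2 were singled out after their values were seen). Arntl was at 18.1 to 24.5 CPM in Dgcr8 controls and 23.5 to 32.5 CPM in Dgcr8 iKO nerves, but at 4.73 to 8.63 and 6.65 to 8.53 CPM in the Dicer groups. Its gap was 1.66 between controls (adjusted p = 0.0074) and 1.86 between iKO groups (adjusted p = 0.0014, quasi-likelihood test), and its difference of effects 0.20 ± 0.31. Tef had gaps of -0.75 and -1.30, and a difference of effects of -0.55 ± 0.16 (adjusted p = 0.184). Npas2, a partner of Arntl, had gaps of 0.76 and 2.51, and a difference of effects of 1.75 ± 0.81 (adjusted p = 0.361, quasi-likelihood test). The time of day at which nerves were taken is not given in the sources used here, and its part in these values was not tested. Over the alternatives run, the clock median lay between -0.71 (without Dgcr8 control 1) and -0.44 (without Dgcr8 control 2).

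Predicted targets of SC microRNAs were compared next. let-7f, which blocks growth and oncofetal genes, and miR-10a and miR-10b were examined with lists of predicted targets from the study's supplement, and targets of other microRNAs were not analysed here. Their mature sequences are printed (RefSeq, GRCm38.p6) because the seed, bases 2 to 8 in capitals, defines the targets, and the identical seed of miR-10a and miR-10b gives both the same list.
let-7f-5p (chr13:48537889-48537910, minus strand, with another copy at chrX:151912353-151912374, plus strand): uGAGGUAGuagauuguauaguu
miR-10a-5p (chr11:96317186-96317208, plus strand): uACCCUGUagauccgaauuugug
miR-10b-5p (chr2:74726074-74726096, plus strand): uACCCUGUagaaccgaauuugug
Of 752 predicted let-7f targets tested, 11 passed the lenient rule upwards and 4 downwards, and the median log2 difference was 0.08, with medians of 0.15 in Dgcr8 iKO and 0.04 in Dicer iKO nerves. Of 174 targets of miR-10a and miR-10b, 4 passed upwards and 0 downwards (Fosl2, Klhl29, Ltbp1 and Sdc1), with a median of 0.03 (0.014 to 0.099 without single libraries). Over all genes tested, 1.51% passed upwards and 0.627% downwards. At an unadjusted p under 0.05, 100 let-7f targets (13.3%) were higher and 23 (3.06%) lower in the Dgcr8 line, as were 25 (14.4%) and 5 (2.87%) of the miR-10a and miR-10b targets, beside 7.66% and 6.07% of all genes tested.

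Single let-7 targets of the oncofetal group stood out. Of 17 such genes tested, 2 passed, both upwards, and the list median was 0.66 (0.40 without Dgcr8 iKO 3). Igf2bp2, which binds and stabilises messenger RNAs, was at 16.1, 16.9 and 13.8 CPM in Dgcr8 controls and 38.6, 47.2 and 65.0 CPM in Dgcr8 iKO nerves, while Dicer iKO nerves (13.5, 16.1 and 21.8 CPM) overlapped their controls (12.5, 14.8 and 15.1 CPM). The log2 difference was 1.42 ± 0.30 (adjusted p = 0.137, quasi-likelihood test). Hmga1, a chromatin protein of proliferating cells, rose in both lines, from 4.36 to 5.67 CPM up to 36.2 to 47.9 CPM in the Dgcr8 line and from 7.71 to 12.9 CPM up to 21.8 to 30.2 CPM in the Dicer line. Hmga2, a related let-7 target singled out after its values were seen, was at 13.5, 13.4 and 27.4 CPM in Dgcr8 iKO and 3.33, 5.70 and 7.2 CPM in Dicer iKO nerves, and its difference of 1.58 ± 0.75 did not pass (adjusted p = 0.379, quasi-likelihood test).

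Most candidates had the effect of larger size in the Dgcr8 line, 190 of the 204 higher and 69 of the 85 lower. The others, Alpk1 and Spp1 among them, had it in the Dicer line. The rule selected on the Dgcr8 effect minus the Dicer effect. This builds in a larger Dgcr8 effect for a gene that moved in the direction of its call in both lines. Among candidates with the same sign in both lines, 124 of 125 higher and 58 of 59 lower had the larger Dgcr8 effect. Of 183 genes called in the Dicer line alone, 171 had the same sign in Dgcr8 iKO nerves and 8 passed the lenient rule, against 179 of 1498 genes called in the Dgcr8 line alone. Over all genes tested, 1.51% passed upwards and 0.627% downwards. Calls in 1 line alone rest on the same 2 effects as the lenient rule, so these counts are a description. The 8 were Plcd4, Ifi202b, Cdkn1c, Lars2, Arhgap28, Smco1, Ccdc170 and Chst8, of which 6 were chosen for naming after their values were seen. Arhgap28 was at 14.1, 15.4 and 17.7 CPM in Dicer controls and 5.73, 6.04 and 6.93 CPM in Dicer iKO nerves, and overlapped in the Dgcr8 line at 15.9 to 24.5 and 14.6 to 18.6 CPM. Chst8, a sulfotransferase, was at 2.88, 2.38 and 1.62 CPM and 8.66, 10.7 and 14.8 CPM in the Dicer line, against 1.89 to 3.13 and 2.80 to 5.67 CPM in the Dgcr8 line. Cdkn1c, an imprinted inhibitor of the cell cycle, fell in Dicer iKO nerves (12.9 to 18.0 CPM) from controls at 45.6, 36.3 and 17.7 CPM, with Dgcr8 controls at 12.3 to 17.2 CPM and iKO nerves at 20.6 to 30.3 CPM.

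Some of these values rested on single groups or libraries. Ifi202b, an interferon-inducible gene of a family with near-identical copies, was at 3.79 to 5.46 CPM in the 3 Dicer controls and at no more than 0.23 CPM in the other 9 libraries. Lars2, a mitochondrial tRNA ligase, ranged from 58.8 to 985 CPM within the Dgcr8 controls. Dlk1, an imprinted signalling protein that passed downwards, had 1 count in each Dgcr8 iKO library against 70 counts in the Dgcr8 controls, and 10 against 29 counts in the Dicer line. The adipocyte genes Cfd and Car3, which passed upwards, were high in 1 Dgcr8 iKO and 1 Dicer control library (45.4 and 56.6 CPM for Cfd) and at most 6.90 CPM in the other 10, with Fabp4 at 0.41 to 0.95 CPM in Dgcr8 controls and 2.59, 17.5 and 3.38 CPM in Dicer controls.

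The number of candidates depended on single libraries of both lines, most of all on Dicer control 3. Leaving out single libraries gave 126 to 475 genes higher and 51 to 150 lower in the Dgcr8 line. The largest counts came without Dicer control 3, the one library of its group without Y-linked RNA, when the strict rule was passed by 320 genes upwards and 81 downwards and the lenient rule by 475 and 150. Of those 475 and 150, 187 and 70 were candidates with all 12 libraries. Without Dicer control 1 the lenient counts were 126 and 74, and with Y-linked RNA as a covariate 137 and 99, of which 114 and 70 were shared. They were 133 and 69 without Dgcr8 control 1, 149 and 51 without Dgcr8 control 2, and 134 and 51 without Dicer iKO 1.

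**Figure D5:**
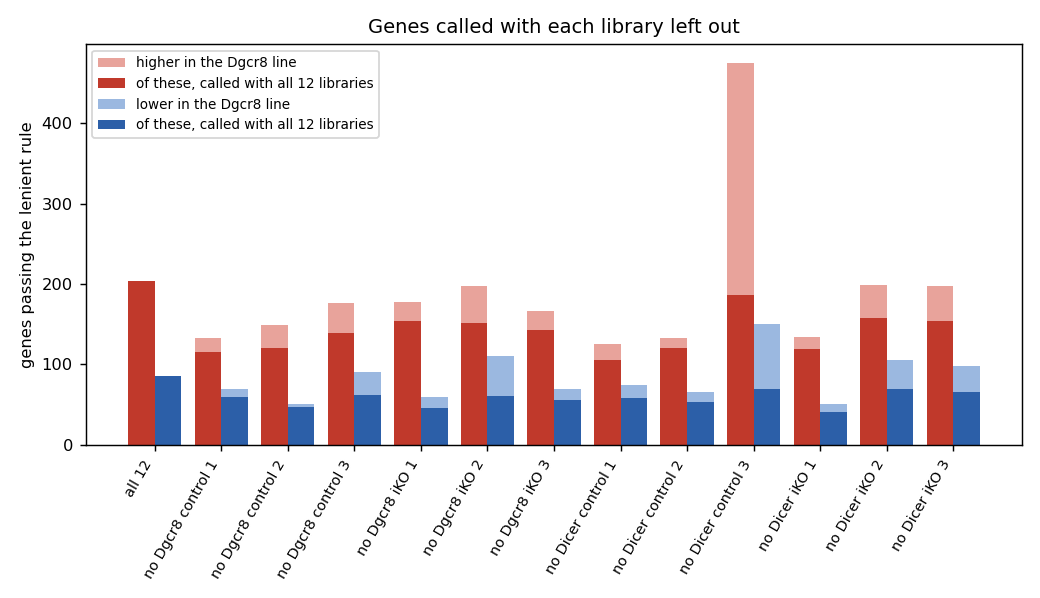
Number of genes passing the lenient rule with all 12 libraries and with each library left out, higher (red) and lower (blue) in the Dgcr8 line, with the dark part shared with the full set. Counts were highest without Dicer control 3 (475 and 150) and lowest upwards without Dicer control 1 (126).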

How the data were processed

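Sciatic nerve RNA of 12 mice was sequenced after ribosomal depletion and stranded library preparation. The authors deposited estimated counts per transcript for each library, which they made by trimming with Trimmomatic, aligning with STAR and counting with RSEM on Ensembl GRCm38. RSEM divides reads that match several transcripts or gene copies, so values of near-identical genes are uncertain. The estimated counts were summed over 69896 transcripts to 22880 genes and rounded to whole numbers, and no row lacked a gene. The 11 libraries of the nerve crush experiment were not used here.

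Groups came from the genotype labels. Nothing in the labels says that the libraries share litters or days, and p-values measure the spread between these libraries. Low genes were removed with filterByExpr of edgeR (at a minimum count of 10), libraries were scaled by TMM, and 1 quasi-likelihood fit with 4 group means gave all contrasts (R 4.3.3, edgeR 4.0.16), with Benjamini-Hochberg adjustment over the 13552 genes tested. The fit was tested on simulated data. These gave every gene the same spread and had no gap between controls, so they did not test those features of the real libraries. Normalised CPM used the TMM-scaled library sizes. At 3 counts the limit of detection lay between 0.296 and 0.536 CPM. Counting intervals are exact and cover counting error only. Replicate libraries differed beyond counting noise (chi-square per degree of freedom 4.51 to 40.3 over 12 pairs).

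Named genes were the targeted genes, the 12 with the smallest p in each direction among those with a log2 difference of at least 1 in size and a mean log2 CPM of at least 0, genes of a list that passed a rule (up to 4 in each direction), and markers of SC state. Other genes are said to have been singled out after their values were seen. The comparison, gene lists and rules were chosen with earlier results of these data known. Alternatives were another normalisation (RLE), other count filters, protein-coding genes only, a stricter threshold, a replicate block, DESeq2 1.42.0, limma 3.58.1 voom and each library left out. A covariate for Y-linked RNA, the 9 libraries with that RNA alone, and leaving out both Dicer control 1 and Dicer iKO 1 were added after seeing the data.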

Additional observations from a re-analysis of the deposited data

Results flagged for a closer look

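Effects of the 2 deletions differed by a test of the difference itself for 2 genes. The log2 difference of effects was 4.78 for Plvap, higher in the Dgcr8 line, and -1.27 for Per3, lower in the Dgcr8 line (adjusted p = 0.0462 and 0.0495, edgeR's quasi-likelihood test). All 3 Dgcr8 iKO libraries were above the other 9 for Plvap and below the other 9 for Per3.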

How the results depend on the processing

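Strict calls (1 higher and 1 lower) depended on the processing. They were 0 and 0 with at least 10 counts in every library, with an adjusted p of at most 0.01 and without both Dicer control 1 and Dicer iKO 1, 17 and 3 with no filter on counts, 170 and 65 by DESeq2 and 406 and 289 by limma voom. RLE normalisation left 0 lower, a Y-linked covariate gave 2 higher, and the 9 libraries with Y-linked RNA gave 410 and 164. Lenient calls were 43 and 16 at p of at most 0.001, 352 and 161 by limma voom, 672 and 317 in the 9 libraries and 97 and 48 without both Dicer libraries. Leaving out single libraries gave 0 to 320 and 0 to 81 strict and 126 to 475 and 51 to 150 lenient calls.

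Same-numbered libraries did not deviate together on average (mean r = -0.0245 over 18 pairs, against 0.0125 over 36 others). Single pairs ranged from -0.154 to 0.186, and pairs across the lines were included. This cannot exclude shared litters or days, and the libraries were treated as unpaired. With a replicate block, strict calls were 0 and 0, lenient calls 156 and 65, and 28 genes differed between controls.

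Genes differing between controls (223 in all) numbered 7 at the stricter threshold, 363 with no filter and also with the Y-linked covariate, 433 by DESeq2, 737 by voom, 4 when only those groups were fitted, 736 in the 9 libraries, 15 without both Dicer libraries and 3 to 723 without single libraries. Genes differing between iKO groups numbered 26, 211, 279 by DESeq2, 267 by voom, 237 in the 9 libraries, 49 without both Dicer libraries and 31 to 238 without single libraries. Genes down in Dicer iKO were 144 at the stricter threshold, 178 with at least 10 counts, 509 by voom, 92 in the 9 libraries, 538 without both Dicer libraries and 161 to 465 without single libraries. Genes up were 1179 in Dgcr8 iKO and 699 in Dicer iKO with at least 10 counts, and 300 in Dicer iKO in the 9 libraries. The slope over genes called in both lines was 1.15 to 1.35 without single libraries, 1.45 in the 9 libraries and 1.08 without both Dicer libraries, and over all genes 1.24 to 1.501, 1.53 and 1.12.

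Among list medians, those of T cell and adipocyte markers were 1.32 and 4.65 with no filter. With at least 10 counts, imprinted genes were at 0.35 and histones at 0.22, and by voom muscle markers at -0.62. In the 9 libraries the medians were 0.99 for let-7 oncofetal genes, 0.50 for imprinted genes, 1.79 for neutrophil, 2.91 for T cell and 9.45 for adipocyte markers, 1.46 for MHC class II, 1.56 for complement, 0.77 for lysosome, -0.33 for endothelial markers and 1.197 for TGF-beta genes. Without both Dicer libraries they were 0.28 for complement, 0.010 for glycolysis, 8.86 for adipocyte markers, 7.34 for sex-linked genes and 0.12 for targets of miR-10a and miR-10b. Without single libraries they ranged from 0.82 to 10.1 for adipocyte markers, -0.20 to 0.39 for imprinted genes, 0.53 to 7.73 for sex-linked genes, -0.47 to 0.98 for muscle and -0.32 to 1.79 for T cell markers.

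Of 77 named genes passing the lenient rule, 29 passed in every alternative and 0 changed sign. Among 9 that did not pass, 4 changed sign. Dgcr8 was at -0.024 by voom, -0.049 in the 9 libraries and -0.081 (without Dgcr8 iKO 2) to 0.153 without single libraries. Gdnf was at 0.77 by voom, -0.70 without Dgcr8 control 1, 0.37 without Dgcr8 control 2, 0.26 without Dicer control 3, 0.06 without Dicer iKO 2 and 0.97 in the 9 libraries. Egr2 was at 0.30 without Dicer control 1, -0.03 without Dgcr8 control 1, -0.11 without Dgcr8 iKO 2, -0.19 without Dicer control 3, -0.10 without Dicer iKO 2 and -0.18 in the 9 libraries, and Sox10 at -0.021 without Dicer control 3 and 0.41 without Dicer control 1. The cause was not tested. The 9 libraries hold 1 Dicer iKO library, which was assumed to vary like the other groups. Low counts limit Plvap, Gdnf, Dlk1 and Ifi202b, each with 11 counts or fewer in a group.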
